A study of Mus musculus with 22 samples.

Results

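The genes described here encode proteins of the cornified envelope, the insoluble protein shell of the outermost epidermal cells. They were chosen by gene symbol alone: every Lce and Sprr gene, Lor, Ivl, the S100-fused genes Flg, Flg2, Hrnr, Rptn, Tchh, Tchhl1 and Crnn, and the keratinocyte genes Krtdap and Calm4. The rule found 48 of the 26379 gene symbols in the data, of which 47 were in the table for skin and blood and 48 in the table for cultured keratinocytes. On the mouse genome 46 of them lie within 1.392 Mb of chromosome 3, from 92080271 to 93471980 (GRCm38), the epidermal differentiation complex. Krtdap (chromosome 7) and Calm4 (chromosome 13) lie outside it. RNA was sequenced from 8 mice, 4 with a K5-VGLL3 transgene (VGLL3_TG), in which the K5 promoter drives VGLL3, and 4 wild type, each giving a sample of nonlesional skin and one of whole blood. Primary keratinocytes came from 3 transgenic and 3 wild-type mice. In both genotypes the animals numbered 1 and 2 were male and those numbered 3 and 4 female. The keratinocytes were grown for 3 days from tail skin of littermates taken at 23 days of age. Of these cultures, transgenic 1 to 3 and wild-type 3 were male, and wild-type 1 and 2 were female. K5 is keratin 5, whose promoter acts in basal keratinocytes, so the transgene is directed to the epidermis and related epithelia, and not to blood cells. The labels give neither the skin site and strain background nor the age of the 8 mice, which were matched in age and sex between genotypes.

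As basal keratinocytes move outward they stop dividing and switch on, in order, involucrin (Ivl), the small proline-rich proteins (Sprr), loricrin (Lor), the filaggrin family and the late cornified envelope proteins (Lce). Transglutaminases then cross-link these proteins beneath the cell membrane into a barrier against water loss and microbes. Trichohyalin (Tchh) belongs to the same S100-fused family but hardens the inner root sheath and medulla of the hair follicle. VGLL3 is a transcriptional cofactor that works through TEAD DNA-binding proteins. The comparisons ask whether the envelope genes differ between genotypes in each sample type.

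Depth and labels were checked first. Skin libraries held 19600892 to 40678246 counts, keratinocyte libraries 33412093 to 51877437, and blood libraries, the shallowest, 11197265 to 18235483. Levels are normalised read counts (CPM, the share of a library's counts scaled by TMM), listed from library 1 upward, and fold changes are log2 values, transgenic minus wild type. In cultured keratinocytes Vgll3 stood at 499, 478 and 406 CPM in transgenic cultures and 225, 191 and 192 CPM in wild-type cultures. In skin Vgll3 read 98.9, 778, 123 and 92.2 CPM in transgenic and 72.9, 92.4, 43.6 and 49.1 CPM in wild-type libraries. The ranges overlapped at their edges, and the gene did not pass (edgeR adjusted p = 0.239). Transgenic library 2 alone set the top of the transgenic range. Krt5 and Krt14, the keratin pair of basal keratinocytes, were between 15026 and 20911 CPM in every culture, so the keratinocyte markers were present as labelled.

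Promoters of 6 genes are shown because their genes passed the test in blood or in culture: Lor, Krtdap, Calm4 and Hrnr in blood, Crnn and Lce1h in keratinocytes. Each line is the 250 bases before the RefSeq start site, on the gene's strand (GRCm38.p6). Capitals mark matches to an AP-1 motif (TGANTCA), a TEAD motif (GGAATG) or a TATA box (TATAAA), searched on both strands, and no matches to different motifs overlapped.
Lor, chr3:92083143-92083392, minus strand: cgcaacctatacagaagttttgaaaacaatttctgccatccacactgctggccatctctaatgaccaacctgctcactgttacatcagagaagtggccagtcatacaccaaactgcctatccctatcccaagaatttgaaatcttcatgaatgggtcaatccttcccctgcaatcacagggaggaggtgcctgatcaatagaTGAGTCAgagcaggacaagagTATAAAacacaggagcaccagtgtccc
Krtdap, chr7:30787655-30787904, plus strand: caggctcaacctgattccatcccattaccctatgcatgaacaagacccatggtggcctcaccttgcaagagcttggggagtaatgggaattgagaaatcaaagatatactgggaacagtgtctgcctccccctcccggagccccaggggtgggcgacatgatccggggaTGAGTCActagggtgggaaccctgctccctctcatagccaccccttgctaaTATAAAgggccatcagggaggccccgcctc
Calm4, chr13:3837507-3837756, plus strand: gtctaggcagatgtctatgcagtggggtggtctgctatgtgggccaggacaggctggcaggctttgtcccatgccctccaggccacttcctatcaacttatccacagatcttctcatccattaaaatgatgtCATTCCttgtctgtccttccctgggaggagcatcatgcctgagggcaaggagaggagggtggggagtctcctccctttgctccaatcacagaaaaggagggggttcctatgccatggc
Hrnr, chr3:93319499-93319748, plus strand: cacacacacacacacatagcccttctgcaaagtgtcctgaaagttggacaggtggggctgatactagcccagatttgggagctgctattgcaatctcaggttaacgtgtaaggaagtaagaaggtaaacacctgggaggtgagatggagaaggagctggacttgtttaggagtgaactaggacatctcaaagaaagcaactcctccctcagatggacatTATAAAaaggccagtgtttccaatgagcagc
Crnn, chr3:93144539-93144788, plus strand: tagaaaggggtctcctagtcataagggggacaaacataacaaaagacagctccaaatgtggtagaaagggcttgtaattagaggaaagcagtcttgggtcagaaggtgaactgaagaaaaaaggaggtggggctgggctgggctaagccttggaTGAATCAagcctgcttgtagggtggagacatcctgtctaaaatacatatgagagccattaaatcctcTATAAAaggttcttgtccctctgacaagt
Lce1h, chr3:92765066-92765315, minus strand: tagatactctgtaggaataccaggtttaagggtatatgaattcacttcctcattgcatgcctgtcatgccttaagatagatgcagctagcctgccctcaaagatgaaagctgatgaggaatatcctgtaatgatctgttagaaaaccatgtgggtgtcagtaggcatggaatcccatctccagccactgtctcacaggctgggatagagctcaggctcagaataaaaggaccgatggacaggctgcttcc
Lor, Krtdap and Crnn held an AP-1 match 48, 81 and 96 bases before the start site and a TATA box 27, 30 and 29 bases before it. Hrnr held a TATA box alone, at 31 bases, Calm4 a TEAD match alone, at 118 bases, and Lce1h none of the 4 motifs searched, the fourth being the GRHL motif AACNGGTT.

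Of the 45 genes with a RefSeq promoter entry, 17 (37.8%) held the AP-1 motif, against 6.87% of 27025 mouse promoters of the same length. A TATA box was found in 21 (46.7%, against 12.97%), the TEAD motif in 9 (20%, against 12.6%) and the GRHL motif in 1 (2.22%, against 1.71%). The motifs fell by subfamily. AP-1 matches stood in both Sprr1 promoters, in those of Lor and Ivl, in 5 of 7 S100-fused and in 7 of 10 Sprr2 promoters, but in 0 of 13 Lce1 and 0 of 6 Lce3 promoters. Of the 9 promoters with the TEAD motif 4 were of Lce1 genes. Whether promoters of a subfamily are independent cases was not tested. A stretch just after the start site was found in the gene's annotated transcripts for 25 of the 45 windows. Both Sprr1 windows, that of Ivl and the 7 Sprr2 windows with AP-1 matches were not among these. A first exon that ends within the stretch also gives no match, so this check cannot tell whether those start sites are wrong.

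Skin and culture shared some leading members, Krtdap and Sprr1a among them, and differed in others. Per kilobase of exon, the most abundant member in transgenic skin was Krtdap, a small secreted protein of differentiating keratinocytes, at 1670 ± 869 CPM per kb (SD, n = 4). It was followed by Calm4, a skin calmodulin-like protein, at 500.1 ± 270 CPM per kb, Lor at 453 ± 249 CPM per kb and Lce1m at 439 ± 218 CPM per kb. The SDs exceed the steps between these 3. In wild-type skin Sprr1a led at 1184 ± 1606 CPM per kb, a mean set by 1 library. In culture the order was the same in both genotypes for the leading 5 members: Sprr1a, Krtdap, Sprr1b, Sprr2h and Calm4. Sprr1a was at 1099 ± 431 CPM per kb in transgenic and 1190 ± 371 CPM per kb in wild-type cultures (SD, n = 3).

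**Figure D1:**
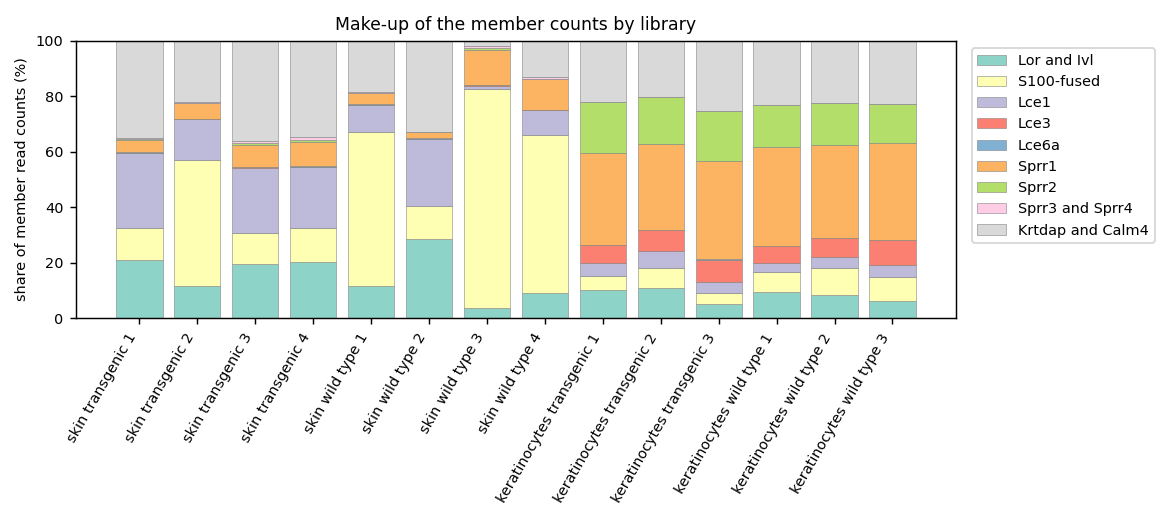
Stacked bars give, for each skin and keratinocyte library, the percentage of all member read counts that each subfamily took. Lce1 genes took 22.2% to 27.1% of member counts in transgenic libraries 1, 3 and 4 and 24.3% in wild-type library 2, while S100-fused genes took 79.0% in wild-type skin library 3; the 6 cultures share one make-up led by Sprr1.

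As the stacked bars of member counts show, culture and skin divided the counts differently. Lce3 genes took 5.91% to 9.14% of member counts in culture and 0.00% to 0.18% in skin, and Sprr2 genes took 14.2% to 18.4% against 0.02% to 0.46%. Lor took 9.53% to 26.2% of member counts in every skin library but wild-type 3 and 4, and 0.38% to 0.48% in culture. The kits used to extract RNA differed between sample types, so these are descriptions of each, with no test.

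In skin no member passed the edgeR test. Of 47 members in the table, 34 had enough counts to be tested, and 0 were called higher and 0 lower at an adjusted p under 0.05, where 0.0112% and 0.0% of all 17901 genes were called. The other 13 did not reach the count minimum: Lce3a, Lce3b, Lce3e, Lce3f, Sprr3 and all Sprr2 genes apart from Sprr2a3, Sprr2f and Sprr2h. Of the 34, 23 had a positive log2 fold change, with a median of 0.73, where 8798 of all 17901 genes were positive and their median was -0.01. Transgenic and wild-type libraries did not overlap for 1 member higher (Sprr2a3) and 0 lower, against 3.91% and 3.5% of all genes.

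Lor, the main protein of the envelope by mass, read 982, 168, 883 and 1188 CPM in transgenic skin and 347, 1509.6, 223 and 458 CPM in wild-type skin. Transgenic library 2 was lowest of all 8 and wild-type library 2 highest, so the groups overlapped (log2 fold change 0.46, SE 0.80, edgeR adjusted p = 0.783). Lce1m, the most abundant late cornified envelope gene in skin, was also lowest in transgenic library 2 and highest in wild-type library 2, at 600.1, 121, 453 and 492 CPM against 186, 811, 128 and 250 CPM. Lce1a1 read 177, 29.6, 172 and 217 CPM in transgenic and 36.2, 113, 23.9 and 62.2 CPM in wild-type libraries. Among the 14 Lce1 genes, transgenic library 2 was the lowest transgenic library for 14 of them, and wild-type library 2 the highest wild-type library for 13. Their log2 fold changes were all positive, from 0.43 for Lce1m to 1.83 for Lce1j, also relative to Krt5 and Krt14, but for 12 of 14 negative with the hair shaft score in the model, and none passed. That scaling to Krt5 and Krt14 moved the median of all genes to -0.29 and that of the members to 0.50. Krtdap read 1420.3, 263, 1302 and 1552 CPM against 461, 1379, 276 and 541 CPM. Calm4 read 461, 123, 538 and 713 CPM against 217, 513, 153 and 274 CPM. Library 2 of each genotype again stood with the other genotype (log2 fold changes 0.84 and 0.61, edgeR adjusted p = 0.541 and 0.602).

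The S100-fused genes followed 2 patterns across the libraries. Hrnr, a late filaggrin-like protein, read 117, 2.87, 96.5 and 190 CPM in transgenic and 18.2, 97.7, 13.6 and 33.9 CPM in wild-type skin. Flg2 followed it at 437, 21.8, 396 and 519 CPM against 177, 538, 136 and 247 CPM. Filaggrin itself (Flg), the source of the skin's moisturising factor, was less abundant and overlapped at 3.496 to 35.6 CPM against 8.25 to 69.8 CPM, and Rptn overlapped at 0.51 to 37.3 CPM against 2.62 to 82.8 CPM. Tchh ran opposite to Hrnr, at 7.92, 732, 5.34 and 10.1 CPM in transgenic and 1732, 6.88, 15080 and 2802 CPM in wild-type skin. Crnn, which encodes cornulin, read 0.029, 26.9, 0.041 and 0.108 CPM against 58.6, 0.040, 1415 and 207 CPM. Tchhl1, a relative of Tchh, read 0.058, 6.59, 0.571 and 0.081 CPM against 22.1, 0.159, 1347 and 146 CPM. Library 2 was the exception in both genotypes for all 3. Their log2 fold changes of -5.69, -6.21 and -6.11 had SEs of 3.79, 4.67 and 3.51 and did not pass (edgeR adjusted p = 0.453, 0.505 and 0.391).

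Sprr genes and Ivl, which are switched on early in differentiation and in stressed epidermis, were set mostly by 1 library. Sprr1a read 236, 94.5, 402 and 567 CPM in transgenic and 148, 120, 2855 and 695 CPM in wild-type skin. Ivl read 141, 32.9, 111 and 133 CPM against 71.0, 133, 630 and 98.0 CPM. Wild-type library 3 was the highest of all 8 for both, as it was for Sprr1b (75.4 CPM), Sprr2h (102 CPM), Sprr4 (200 CPM), Lce3c (26.9 CPM) and Lce3d (12.2 CPM). Sprr3, an esophageal type, was at 0 in 7 of the 8 skin libraries. Sprr2a3 was the member with the smallest p, at 5.27, 1.59, 11.3 and 26.7 CPM in transgenic and 0.247, 0.796, 1.41 and 0.375 CPM in wild-type skin. All transgenic libraries lay above all wild-type ones (log2 fold change 3.61, SE 0.75, edgeR adjusted p = 0.182). Sprr2a3 shares 61.1% of its 50-base windows with Sprr2a1, so reads may be split or dropped between these copies. DESeq2 called Sprr2a3 higher and Crnn and Tchhl1 lower, where it called 3.75% and 2.39% of all genes.

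**Figure D2:**
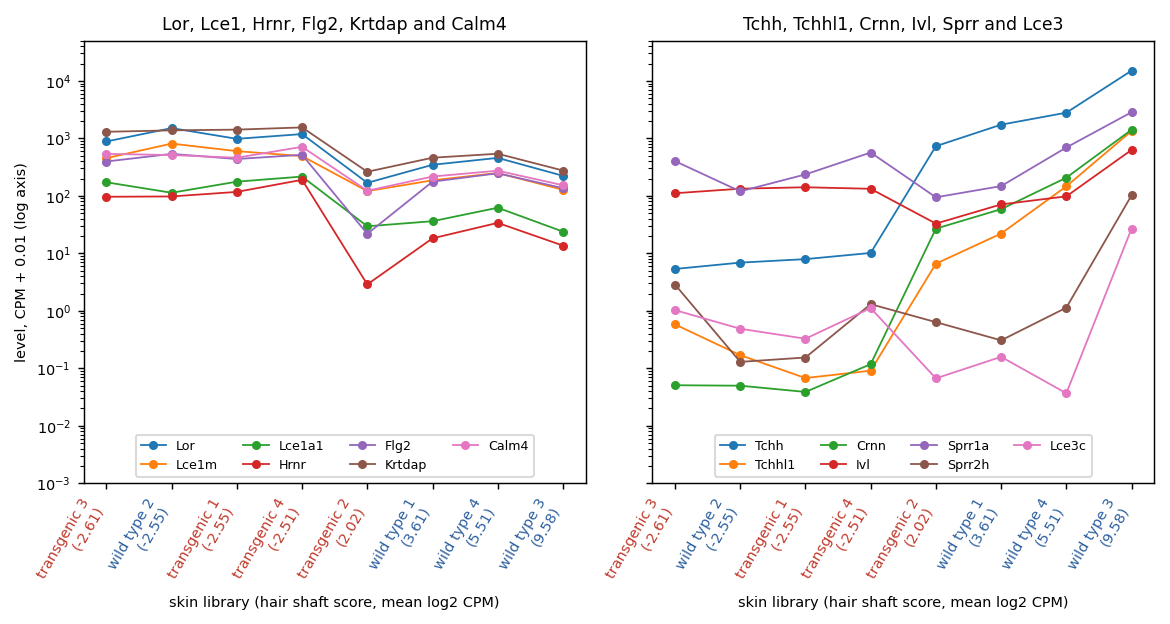
Levels (CPM + 0.01, log axis) of 7 members per panel in the 8 skin libraries, ordered by the hair shaft score given in brackets; red names are transgenic and blue names wild type, and lines only join the points of a gene. In the left panel, transgenic library 2 and wild-type libraries 1, 3 and 4 lie below the other 4 libraries, and they lie over those 4 for Tchh, Tchhl1 and Crnn on the right.

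Hair follicle genes moved with these values. The 21 hair shaft genes, of which none is a member, summed to 12.7 to 344 CPM in transgenic and 17.03 to 21730 CPM in wild-type skin, and 8 inner root sheath genes other than Tchh to 5.34 to 2935 CPM and 3.66 to 33890 CPM. None of these genes was at 0 throughout a genotype. The hair shaft score, the mean log2 CPM of 20 tested hair shaft genes, was -2.55, 2.02, -2.61 and -2.51 in transgenic and 3.61, -2.55, 9.58 and 5.51 in wild-type libraries, the order drawn in the plot of skin levels by library. With that score in the model 12 of 34 members were positive, the median was -0.35, the Lce1 genes were positive for 2 of 14, and 0 were called. Score and genotype overlap so far in these 8 libraries that their shares cannot be told apart. In bulk tissue, fewer cells of a type and less RNA per cell cannot be told apart either.

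Library 2 of both genotypes had been found apart from its group in hair genes in an earlier analysis of these data, and was left out as an alternative. Without that pair 21 members were called higher and 3 lower (Crnn, Tchh and Tchhl1), where 7.32% and 8.85% of 18418 genes were called, and the median was 1.43. The 21 were all 14 Lce1 genes, Lce6a, Lor, Hrnr, Flg2, Krtdap, Calm4 and Sprr2a3. Hrnr then had a log2 fold change of 2.61 (SE 0.42), Krtdap of 1.73 (SE 0.29) and Lor of 1.56 (SE 0.31), with edgeR adjusted p of 0.0191, 0.0206 and 0.0286. Because the libraries were dropped for standing apart, these counts are no independent support for a genotype effect. Leaving out any single library gave 0 calls and a median of 0.56 to 1.19.

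**Figure D3:**
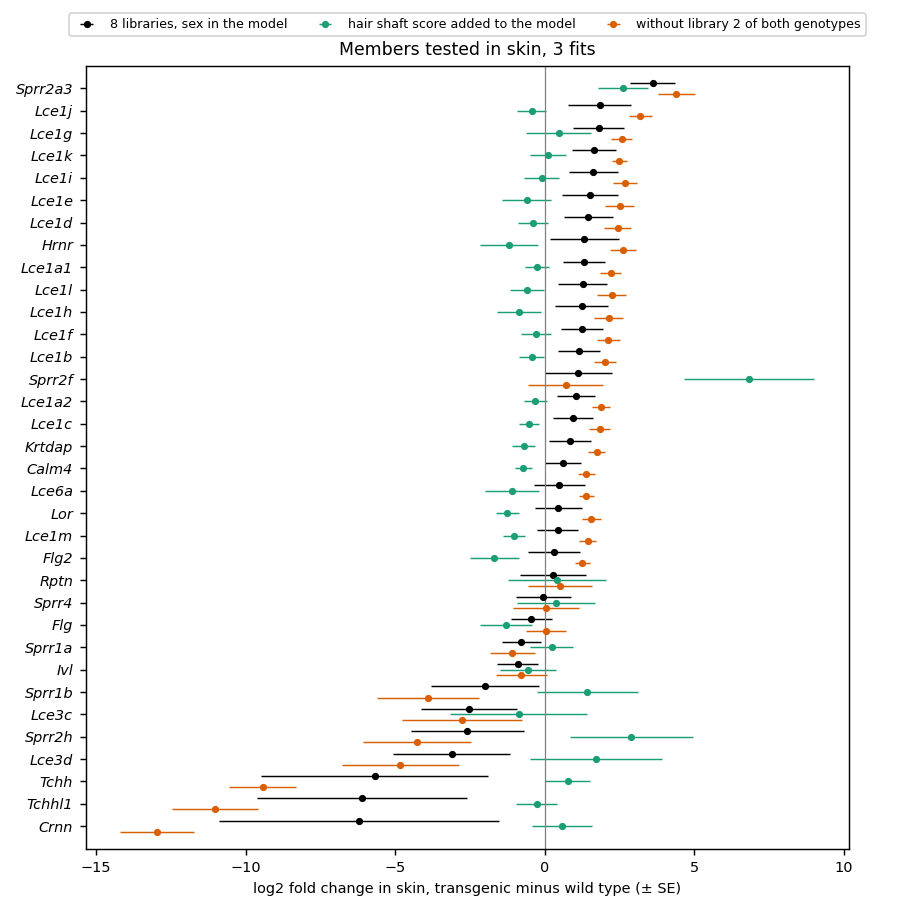
Log2 fold changes in skin (transgenic minus wild type, bars ± SE) of the 34 tested members under 3 fits. The Lce1 genes, Lor, Hrnr, Krtdap and Calm4 lie right of 0 with all 8 libraries (black), move further right without library 2 of both genotypes (orange) and lie mostly left of 0 with the hair shaft score in the model (green).

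Other genes of the cornification pathway did not pass in skin either. Of the remaining genes of the complex 10 of 17 were positive, of other envelope proteins 4 of 11, of cross-linking and processing enzymes 7 of 23, of barrier lipid genes 9 of 16, of suprabasal keratins and desmosomal genes 4 of 13 and of differentiation transcription factors 8 of 23, with 0 called in each list. Tgm1, the main cross-linking enzyme of the epidermis, was at 21.5 to 70.6 CPM in transgenic and 48.4 to 240 CPM in wild-type skin. Tgm3, a transglutaminase of hair and late epidermis, was at 0.67 to 13.7 CPM against 3.10 to 310 CPM. Casp14, the protease of filaggrin breakdown, was at 19.3 to 42.5 CPM against 27.3 to 204 CPM. Krt10, the suprabasal keratin, showed the library 2 pattern of Lor, at 4327, 871, 4035 and 4934 CPM against 1820, 5278, 968 and 2129 CPM.

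In whole blood the envelope genes were near the limit of detection, yet 4 were lower in transgenic animals. Member genes took 0.000204% to 0.00282% of blood counts, and only 5 passed the filter on low counts. Krtdap, Lor, Calm4 and Hrnr fell, where 0.546% of 11174 genes were called lower and 0.215% higher. They passed the filter through the wild-type libraries, so that 4 of 5 is no measure of the family. For the same 4 the groups did not overlap, as for 5.07% of all genes lower and 3.69% higher.

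Read counts show the difference directly. Krtdap had 1, 4, 2 and 1 counts in transgenic and 59, 65, 46 and 65 counts in wild-type blood (log2 fold change -5.49, SE 0.60, edgeR adjusted p = 0.00767). Calm4 had 3, 2, 3 and 0 against 50, 102, 52 and 91 counts (-5.94, SE 0.78, edgeR adjusted p = 0.0172). Lor had 2 counts in each transgenic library and 21, 35, 37 and 29 in the wild-type libraries (-4.50, SE 0.55, edgeR adjusted p = 0.0118). Hrnr had 0, 1, 0 and 0 against 14, 17, 10 and 18 counts (-5.98, SE 0.94, edgeR adjusted p = 0.0341). No transgenic library came near a wild-type one for any of the 4. Pooled over libraries and scaled by library size, wild-type blood held 41.9 times the Krtdap of transgenic blood (95% exact interval 20.9 to 98.3, counting error only), 52.6 times the Calm4 (26.4 to 123) and 21.8 times the Lor (10.7 to 51.6).

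The other 42 members had too few counts in blood to be tested. Among all 47, 34 had more pooled counts in wild-type blood, 4 more in transgenic blood, 1 was equal and 8 had none, and 20 had wild-type counts and no transgenic count. No share of all genes stands beside these numbers. The 14 Lce1 genes had 10 counts together in transgenic and 190 in wild-type blood, and 9 of them had none in transgenic blood. Lce1a1 had 0 counts in every transgenic library and 6, 13, 5 and 10 in wild-type libraries, at least 16.2-fold lower against a floor of 3 counts over the group. Flg2 had 1, 1, 1 and 0 against 11, 6, 12 and 4 counts.

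Tchh, Tchhl1 and Crnn had more pooled counts in transgenic blood, unlike the other S100-fused genes Flg, Flg2, Hrnr and Rptn. Tchh had 98, 22, 64 and 12 counts in transgenic and 17, 13, 20 and 4 in wild-type blood, overlapping groups that did not pass (log2 fold change 1.34, SE 0.61, edgeR adjusted p = 0.336). Tchhl1 had 14 pooled counts in transgenic and 0 in wild-type blood, and Crnn 15 against 3. Sprr1a overlapped, at 16, 2, 7 and 3 against 8, 8, 12 and 11 counts.

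**Figure D4:**
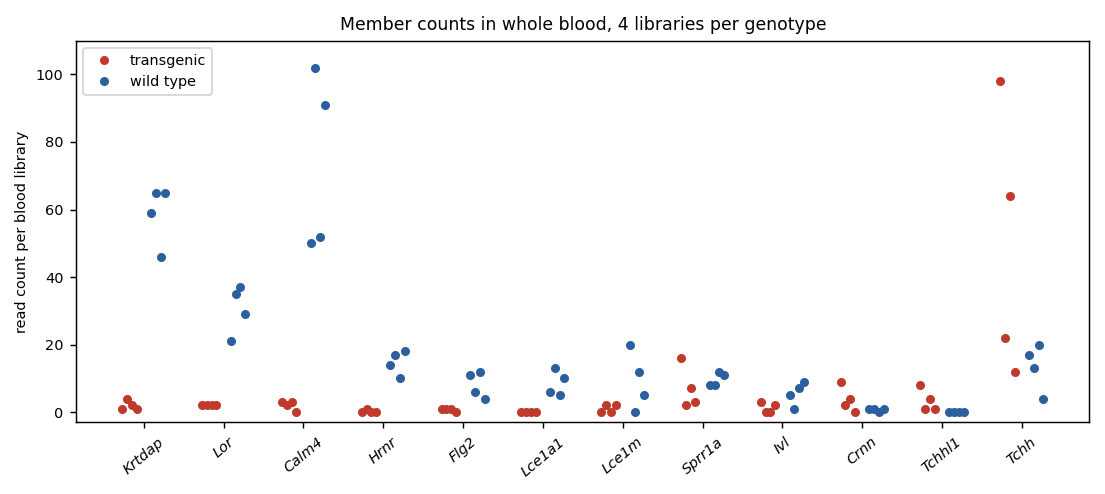
Read counts of 12 members in the 8 blood libraries, 1 point per library (red transgenic, blue wild type). Krtdap, Lor, Calm4 and Hrnr lie at 0 to 4 counts in transgenic and 10 to 102 in wild-type libraries, while Tchh reaches 98 in a transgenic library.

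Some other genes of skin were lower in transgenic blood too, and others were not. Of 12 tested cross-linking and processing enzymes 6 were positive and 2 were called lower, Spink5 and Klk7 (log2 fold changes -3.73 and -3.07). Tgm1 and Asprv1 had the highest values (2.33 and 2.27) and did not pass. The whole list summed to 212 to 312 CPM in transgenic and 148 to 201 CPM in wild-type blood. Of 8 tested other envelope proteins 3 were positive and 4 were called lower, with list sums of 151 to 434 CPM against 58.8 to 127 CPM. The 4 were Pkp1, Dmkn, Dsp and Sbsn (-3.92, -2.88, -2.85 and -2.33), while Anxa1 stood at 2.63 and did not pass. Which cells gave the RNA in these 2 list sums was not tested, so the sums do not show how skin RNA changed. Of 9 tested suprabasal keratins and desmosomal genes 7 fell, with a summed level of 16.9 to 27.8 CPM against 54.8 to 142 CPM. The log2 fold changes of the keratins Krt2, Krt1 and Krt10 were -7.84, -7.09 and -5.63. Of 10 basal epidermis genes 4 fell, among them Krt5 at 0.51 to 0.94 CPM against 10.04 to 24.3 CPM. Of 7 skeletal muscle genes 3 fell (3.81 to 6.65 CPM summed, against 20.04 to 37.7 CPM) and of 8 fibroblast and collagen genes 2 fell (2.83 to 78.0 CPM, against 33.4 to 89.0 CPM). Only Dsg1b of the suprabasal and Tnnc2 of the muscle genes had no transgenic counts, and Tnnc2 had none in wild-type blood either. The part of such other tissue RNA in the fall of the envelope genes was not tested. Relative to Krt10 in the same blood library, Lor was not low: the ratio of their counts was 0.333, 0.105, 0.667 and 0.167 in transgenic and 0.0897, 0.101, 0.145 and 0.0817 in wild-type blood, with 2 Lor counts behind each transgenic value.

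The ratio of Tchh to Lor counts differed between the blood and the skin of the same animal, while ratios among Lor, Krtdap and Krt10 lay closer in wild-type animals. Wild-type animal 3 had 67.5 Tchh counts per Lor count in skin and 0.541 in blood. Transgenic animal 1 had 0.00806 in skin and 49 in blood, from 98 Tchh and 2 Lor counts. Lor counts per Krtdap count were 0.753, 1.09, 0.809 and 0.847 in wild-type skin and 0.356, 0.538, 0.804 and 0.446 in wild-type blood. Lor counts per Krt10 count were 0.191 to 0.286 in wild-type skin, above the blood values given before. Other pairs lay further apart. Calm4 counts per Krtdap count were 0.470, 0.372, 0.554 and 0.507 in wild-type skin and 0.847, 1.57, 1.13 and 1.40 in wild-type blood. Sprr1a counts per Lor count were 0.426, 0.0794, 12.8 and 1.52 in wild-type skin and 0.381, 0.229, 0.324 and 0.379 in wild-type blood. In wild-type animals blood held 0.597% to 1.55% of the skin level of Krtdap and 0.294% to 1.06% of that of Lor. The keratin Krt2 was higher in blood than in skin of each wild-type animal. It read 9.19, 35.1, 9.25 and 30.8 CPM in blood and 7.11, 2.91, 4.61 and 2.84 CPM in skin. The reason for this difference between genes was not tested.

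The call in blood depended on single libraries. Without transgenic replicate 3 none of the 4 passed, and without transgenic replicate 1, transgenic replicate 4 or wild-type replicate 4 Krtdap alone passed (edgeR adjusted p = 0.0368, 0.0499 and 0.0358), and Hrnr also missed without wild-type replicate 1, as Hrnr and Calm4 did without wild-type replicate 2, while every log2 fold change of the 4 stayed between -7.31 and -3.95. With no filter on low counts 10 members were called lower and Tchh was called higher. That fit called many more genes in all, so these calls are no measure of the family.

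The genotype effect was more positive in skin than in blood for 9 of 33 tested members, where 0.938% of 17803 genes were called higher and 0.27% lower, and for 0 members was it called lower. This test is of the tissue-by-genotype term with animal as a block, and it shares its libraries with both comparisons above. Lor had a log2 fold change of 0.46 in skin and -4.50 in blood, a difference of 5.13 (SE 0.64, edgeR adjusted p = 0.00624). For Krtdap the values were 0.84 and -5.49 (difference 6.30, SE 0.71, edgeR adjusted p = 0.0043), and for Calm4 0.61 and -5.94 (6.44, SE 0.63, edgeR adjusted p = 0.00272). Hrnr was at 1.32 and -5.98 (7.98, SE 0.99, edgeR adjusted p = 0.00624). The other 5 were Flg2, Lce1a1, Lce1c, Lce1f and Lce1i, which were not tested in blood alone. Hrnr and Lce1c had 1 transgenic blood count each. Leaving out 1 animal moved their differences between 7.17 and 12.2 for Hrnr and between 4.96 and 9.88 for Lce1c. Lce1a1, Lce1f and Lce1i had no transgenic blood count, so their fitted differences of 10.81, 9.01 and 9.45 depend on the small count the fit adds and are no bound. Tchh, Tchhl1 and Crnn had negative differences (-8.03, -16.38 and -9.49) that did not pass, and Tchhl1, with no wild-type blood count, likewise has a fitted size that is no bound. With no replicate block 2 members were called, Calm4 and Krtdap.

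In cultured keratinocytes 2 members fell and none rose. Of 48 members 47 were tested, and 0 were called higher and 2 lower (Crnn and Lce1h), where 7.11% and 8.09% of 14451 genes were called. The groups did not overlap for 0 members higher and 3 lower (Crnn, Lce1h and Flg2), against 17.7% and 18.5% of all genes. Positive log2 fold changes were found for 27 of 47 members, and their median was 0.03, beside 0.01 over all genes.

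Crnn read 23.0, 31.1 and 21.7 CPM in transgenic and 56.0, 74.7 and 82.5 CPM in wild-type cultures, with no overlap (log2 fold change -1.49, SE 0.18, edgeR adjusted p = 0.00263). Lce1h read 7.18, 6.61 and 6.26 CPM against 16.3, 11.5 and 10.5 CPM, also apart (-0.94, SE 0.17, edgeR adjusted p = 0.0133). Lce1h shares 18.9% of its 50-base windows with other members, mostly Lce1i, and Crnn shares none. Crnn passed under every alternative run, with log2 fold changes of -1.71 to -1.27. Lce1h did not pass with sex in the model (log2 fold change -0.65, edgeR adjusted p = 0.155) or without transgenic replicate 2 (-0.93, edgeR adjusted p = 0.0539).

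The other S100-fused genes did not pass. All 7 genes of the family had negative log2 fold changes, with a median of -0.89, and 6 of 7 did without culture 3 of both genotypes. Flg2 read 1.69, 2.92 and 2.77 CPM against 3.04, 4.26 and 6.83 CPM (-0.92, SE 0.33, edgeR adjusted p = 0.108), and DESeq2 called it lower. Flg read 28.8, 49.0 and 36.6 CPM against 39.3, 67.8 and 84.7 CPM, and Rptn, repetin, 49.9, 94.0 and 112 CPM against 90.4, 164 and 244 CPM. For both the highest transgenic culture lay above the lowest wild-type one. Hrnr (-0.89), Tchhl1 (-0.58) and Tchh (-0.13) overlapped as well.

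The most abundant members of culture differed by less than their spread. Sprr1a was at 652, 722 and 1285 CPM in transgenic and 747, 830 and 1301.5 CPM in wild-type cultures (log2 fold change -0.11, 95% interval -0.82 to 0.59). Krtdap was at 501, 505 and 952 CPM against 521, 567 and 844 CPM (0.02, -0.65 to 0.69). Ivl, at 344, 417 and 298 CPM against 324, 313 and 358 CPM, had the narrowest interval of these (0.09, -0.19 to 0.37). Lor was low in culture, at 14.5, 19.1 and 24.7 CPM against 13.6, 19.5 and 28.7 CPM. The 6 Lce3 genes had log2 fold changes of -0.20 to 0.03. Lce3c, of a group tied to barrier repair, was at 70.5, 89.6 and 143 CPM against 62.4, 79.9 and 154 CPM. Culture 3 was the highest transgenic culture for 28 of the 47 members.

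Lce1 genes other than Lce1h and Lce1j had positive values, 12 of 14 in all, up to 0.77 for Lce1m, but 1 of 14 with sex in the model. Of 11 tested Sprr2 genes 8 were positive. The highest were Sprr2d, at 15.2, 11.4 and 41.8 CPM against 5.60, 5.76 and 14.7 CPM (log2 fold change 1.40, SE 0.57, edgeR adjusted p = 0.146), and Sprr2i, at 4.98, 6.87 and 12.3 CPM against 2.15, 2.30 and 5.53 CPM (1.29, SE 0.45, edgeR adjusted p = 0.101). Sprr2h, the most abundant Sprr2 gene per kilobase, was at 448, 486 and 635 CPM against 320 to 578 CPM and overlapped. Sprr2a3, which was higher in all transgenic skin libraries, had a log2 fold change of -0.03 in culture.

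**Figure D5:**
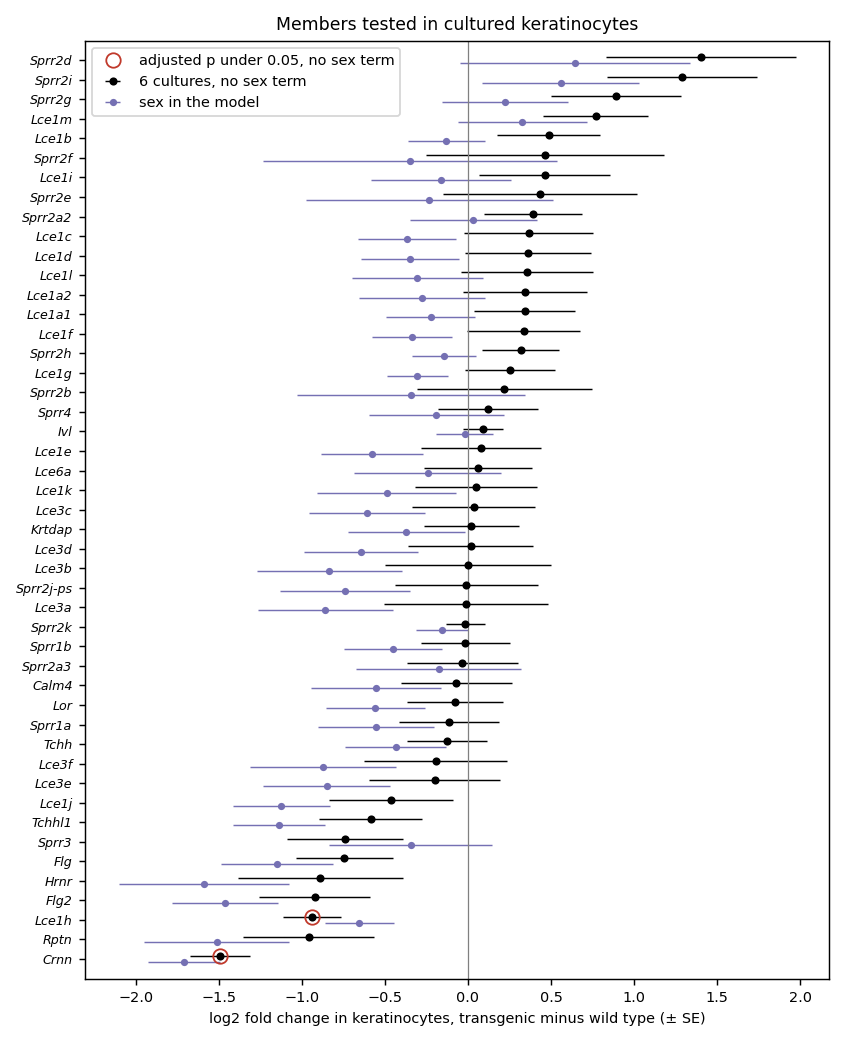
Log2 fold changes in cultured keratinocytes (transgenic minus wild type, bars ± SE) of the 47 tested members without (black) and with sex in the model (purple); red rings mark an adjusted p under 0.05 without the sex term. Crnn and Lce1h carry rings, and the purple points of 42 members lie left of 0.

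The third culture of each genotype stood apart in these genes. Members took 0.628% and 0.620% of counts in transgenic and wild-type culture 3 and 0.350% to 0.407% in the other 4 cultures. Wild-type culture 3 was the highest wild-type culture for 45 of 47 members (95.7%, against 35.3% of all genes). It is also the only male wild-type culture, so with sex in the model the genotype effect rests on it alone, and sex and culture cannot be told apart. That fit gave 5 of 47 positive, a median of -0.37 and 1 call, Crnn. Without culture 3 of both genotypes 11 members were called higher and 4 lower, where 12.5% and 14.4% of 14371 genes were called. The 11 were Sprr2d, Sprr2g, Sprr2h, Sprr2i and 7 Lce1 genes, and the 4 were Crnn, Lce1h, Hrnr and Sprr2a3.

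Among other genes of the pathway, some regulators and enzymes changed in culture. Of 23 differentiation transcription factors 6 rose. Notch1, a receptor that drives exit from the basal layer, rose by 0.57 and Ppard rose by 0.45 on the log2 scale (edgeR adjusted p = 0.00235 and 0.0087). Klf4, a factor of barrier formation, rose from 267 ± 38.3 to 371 ± 32.1 CPM (SD, n = 3, edgeR adjusted p = 0.028). Of 24 cross-linking and processing enzymes 2 rose, Padi3 by 1.23 and Furin by 0.39, and 2 fell, St14, a protease upstream of filaggrin processing (-0.37), and Klk10 (-0.50). Padi3 encodes a deiminase that acts on trichohyalin and filaggrin. Of 11 other envelope proteins Anxa1 and Serpinb2 fell (-1.31 and -1.06). Of 18 other genes of the complex Prr9 rose by 0.57, and S100a3, S100a11 and S100a10 fell. Tgm1 was at 115, 119 and 188 CPM against 141, 153 and 229 CPM and did not pass, and 0 of 16 barrier lipid genes passed.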

How the data were processed

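Stranded TruSeq mRNA libraries of skin, blood and cultured keratinocytes were sequenced on an Illumina HiSeq, per the labels' protocols. The authors deposited read counts per gene symbol, 1 table for skin and blood and 1 for keratinocytes. STAR 2.5.2, HTSeq 0.6.1, DESeq2 and build mm10 are named, without role, per the submitters' processing notes; the annotation, the strand setting and any filter are not stated. All sample columns were used.

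Each comparison was fitted on the whole table with edgeR 4.0.16 (limma 3.58.1, R 4.3.3): TMM scaling, filterByExpr, quasi-likelihood test, Benjamini-Hochberg adjustment over all genes tested, threshold 0.05. Sex was a covariate in skin and blood and not in keratinocytes. Skin minus blood was the tissue-by-genotype term with animal as a block, since both tissues came from the same animals; deviations of an animal's skin and blood correlated at 0.0527 to 0.163 in transgenic and 0.0419 to 0.113 in wild-type mice. CPM are over TMM-scaled library sizes, and per-kilobase levels use exon lengths of the genome annotation. Pooled blood ratios, over TMM-scaled library sizes, carry exact 95% intervals, which cover counting error only, as does the floor of 3 counts. The scripts were tested on simulated data. No 2 libraries of a group agreed within sampling noise. Within skin and within blood the labels name a separate animal for each library, and the same animals gave both tissues. For the cultures p-values measure the spread between these 3 against 3 cultures.

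Named in full were members called in a comparison, the 11 single genes of the rule and leading members of each subfamily. The members, the 18 gene lists and the tests were chosen with earlier results of these data known. Alternatives were DESeq2 1.42.0, its size factors, no filter, other covariates or blocks, and libraries left out. Plots used Python 3.11.15 with matplotlib 3.10.9. Promoters are from RefSeq, with none for Lce1f, Sprr2g and Sprr2j-ps. The result of 1 gene of the lists is not reported here.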

Additional observations from a re-analysis of the deposited data

Results flagged for a closer look

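Of 49 groups of 4 libraries checked for 1 library far from the others, 12 were picked out. The members share libraries and their levels span orders of magnitude. The usual chance rate of about 1 in 20 groups therefore cannot be set beside this count. All 12 were in skin and in 2 libraries. In transgenic library 2, Tchh at 732.1 CPM, Tchhl1 at 6.594 CPM and Crnn at 26.89 CPM lay far above the other transgenic libraries, and Lce1h at 0.8242 CPM far below them. In wild-type library 3, Tchhl1 at 1347 CPM, Crnn at 1415 CPM, Ivl at 630.4 CPM, Sprr1b at 75.37 CPM, Sprr4 at 199.9 CPM, Sprr2h at 102.3 CPM, Lce3c at 26.91 CPM and Lce3d at 12.17 CPM lay far above the other wild-type libraries.

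For 9 members the genotype effect differed between skin and blood of the same animals by edgeR's tissue-by-genotype term. The log2 fold change in skin minus that in blood was 6.438 for Calm4, 6.295 for Krtdap, 5.132 for Lor, 7.982 for Hrnr, 4.442 for Flg2 and 5.785 for Lce1c. It was 10.81 for Lce1a1, 9.014 for Lce1f and 9.446 for Lce1i, which had no transgenic blood counts and for which the fitted size is no bound. The sizes for Hrnr and Lce1c rest on 1 transgenic blood count each.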

How the results depend on the processing

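No result changed sign while called. In skin, where 2 genes in all and 0 members were called, DESeq2 called 1 member higher, 2 lower and 1100 genes in all. Dropping the sex term or using the replicate block (the animal number in place of sex) gave 0 genes in all, the block with a member median of 0.86. The numbers do not pair animals across genotypes: same-numbered animals had deviations correlated at -0.464 to 0.0822 in skin and -0.249 to 0.407 in blood, and with the replicate block the 4 members called in blood stayed 4. The hair shaft score in the model gave 4 genes in all and a member median of -0.35, scaling to Krt5 and Krt14 gave 6 genes in all, and leaving out library 2 of both genotypes gave 21 members higher, 3 lower and 2978 genes in all. Leaving out 1 library gave 0 to 278 genes in all. In blood, with 85 genes called, DESeq2 called 451, the fit with no sex term 162 and the fit with no filter 1101, the last with 1 member higher, 10 lower and a median of -3.62; leaving out 1 library gave 0 to 4 members lower, 3 to 611 genes in all and medians of -5.86 to -4.53. In keratinocytes, with 2197 genes called, the sex term gave 1 member lower, 561 genes in all and a median of -0.37. Leaving out the third culture of both genotypes, an alternative chosen after seeing the data, gave 11 members higher, 4 lower and 3874 genes in all. Leaving out 1 culture gave 0 to 3 members higher (3 without wild-type replicate 3), 1 to 4 lower (4 without transgenic replicate 3), 880 to 3651 genes in all and medians of -0.30 to 0.51. The culture numbers are accession-order names, so no paired fit was made. For skin minus blood, with 215 genes called, DESeq2 gave 17 members higher, 3 lower and 985 genes in all, and the fit with no replicate block gave 2 higher. Leaving out 1 animal gave 5 to 18 members higher and 0 to 3 lower (18 and 3 without transgenic replicate 2), 78 to 869 genes in all and medians of 4.95 to 7.35. The cause of these shifts was not tested. In blood, 42 of 47 members had too few counts to be tested.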

Other observations

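T cell genes ran in opposite directions in the 2 tissues: 12 of 12 tested were positive in skin, with 0 called, and 0 of 12 were positive in blood, with 3 called lower. Their skin minus blood term was called higher for 9 of 12. Melanocyte genes were positive for 0 of 9 and sebaceous gland genes for 9 of 10 in skin, with 0 called in either list. Of 10 tested genes on the Hippo pathway list in keratinocytes, 3 rose and 3 fell. Vgll3, which rose, is the gene that the transgene drives, so its rise cannot be read as a response of a target. Amotl2 rose by 0.77 and Nuak2 by 1.11 on the log2 scale. Among those that fell were Cyr61 by 1.04 and Ptpn14 by 0.69. Leukocyte genes were positive for 10 of 10 in skin and 8 of 11 in blood, where 1 was called. Haemoglobin genes were positive for 0 of 6 in blood, with 0 called. Stress and wound genes had 0 of 10 called in skin, 3 of 8 lower in blood, and 1 higher and 1 lower of 11 in keratinocytes.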
